A study of Mus musculus and Homo sapiens with 27 samples.

Results

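The mRNAs of the cytosolic ribosomal proteins were followed through proximity labelling and streptavidin capture in MC38, a mouse colon carcinoma line. A gene was a member when its mouse symbol had the form of a large subunit (Rpl, Rplp) or small subunit (Rps, Rpsa) protein and its counts summed to at least 90 over 9 libraries. Of 83 symbols that matched, 77 reached that sum, out of 56691 features in the count table. They comprised 46 large subunit and 31 small subunit genes, and all 77 passed the low-count filter of the fit. The member nearest above the minimum was Rps10 with 219 counts, and the nearest below it was Rpl32l with 37. The other symbols under the minimum were Rpl24 with 12 counts, Rpl3l with 3, and Rpl10l, Rpl39l and Rps4l with 0 each. How the authors counted reads that match several genomic copies is not known from the labels, and its part in low counts, those of Rpl24 and of the members Rps10, Rpl13a and Rpl23a among them, was not tested. Rpl6l, which is a member by its symbol, is annotated as a processed pseudogene.

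Ribosomal proteins fold onto ribosomal RNA to build the ribosome, whose small subunit reads the mRNA and whose large subunit joins the amino acids. The proteins carry no signal peptide and are made in the cytosol, in contrast to the secreted and membrane proteins made at the endoplasmic reticulum (ER). Their mRNAs are short and abundant, and most start with a C followed by a run of C and T, the terminal oligopyrimidine (TOP) tract, through which mTOR signalling sets their translation together.

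All groups were MC38 cells that stably expressed an enzyme named LAP in the labels, located at the "ERM", taken to mean the ER membrane. The labels give 1 labelling protocol for all samples: cells received the luciferase substrate furimazine at 50 µM and a compound written as PA at 10 mM, and were kept at 37 °C for 15 to 60 min. Label_Enrich is RNA of labelled cells after biotin was joined to it and it was captured on streptavidin beads, Label_Input is a portion of such RNA set aside ahead of the beads, and NonLabel_Enrich is captured RNA titled as not labelled, whose handling the labels do not describe separately. Each group had 3 libraries of the set titled 12G, and the labels name neither separate cultures nor the clonality of the line, so p-values measure the spread between these libraries, which may be technical.

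Library totals ran from 13127181 to 18614808 counts. A single feature, ENSMUSG00000119584, for which the reference has no symbol, made up 80.7% ± 0.158 (SD, n = 3) of Label_Input counts, 59.3% ± 0.686 in Label_Enrich and 64.7% ± 1.97 in NonLabel_Enrich. Of 7 epithelial markers, Epcam and Cdx2 had 0 counts over the 9 libraries and Krt8, Krt18, Krt19 and Vil1 had 2 to 23, which left Cdh1 at 0.663 to 0.997 CPM as the sole one to pass the low-count filter. Of 9 blood-lineage markers, 7 had 0 counts, Ptprc had 2, and Cd68 stood at 1.62 to 2.37 CPM. Levels are in CPM, read counts relative to library sizes that were scaled with trimmed mean of M values (TMM) factors, which set each level against the bulk of tested genes. The threshold for a call was an adjusted p of 0.05 in the edgeR quasi-likelihood test over all 11676 tested features.

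Ribosomal protein mRNAs held less of the captured RNA than of the input once the 2 features with the most counts, ENSMUSG00000119584 and Lars2, were set aside. The 77 members then took 3.91% to 3.98% of the counts in Label_Input, 3.04% to 3.14% in Label_Enrich and 2.68% to 2.87% in NonLabel_Enrich. The 3 groups did not overlap, and both captured groups lay below the input. As a share of all counts the input was instead the lowest, with 0.484% ± 0.0136 in Label_Input, 0.975% ± 0.0359 in Label_Enrich and 0.734% ± 0.0591 in NonLabel_Enrich (SD, n = 3). Scaled to total counts alone, the median log2 fold change of all tested features from Label_Input to Label_Enrich was 1.60, and that of the members was 0.98, which is 0.61 below it. Directions are given relative to the bulk of tested genes, on the TMM scale. In bulk RNA, fewer cells with an RNA and less of it per cell cannot be told apart.

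**Figure D1:**
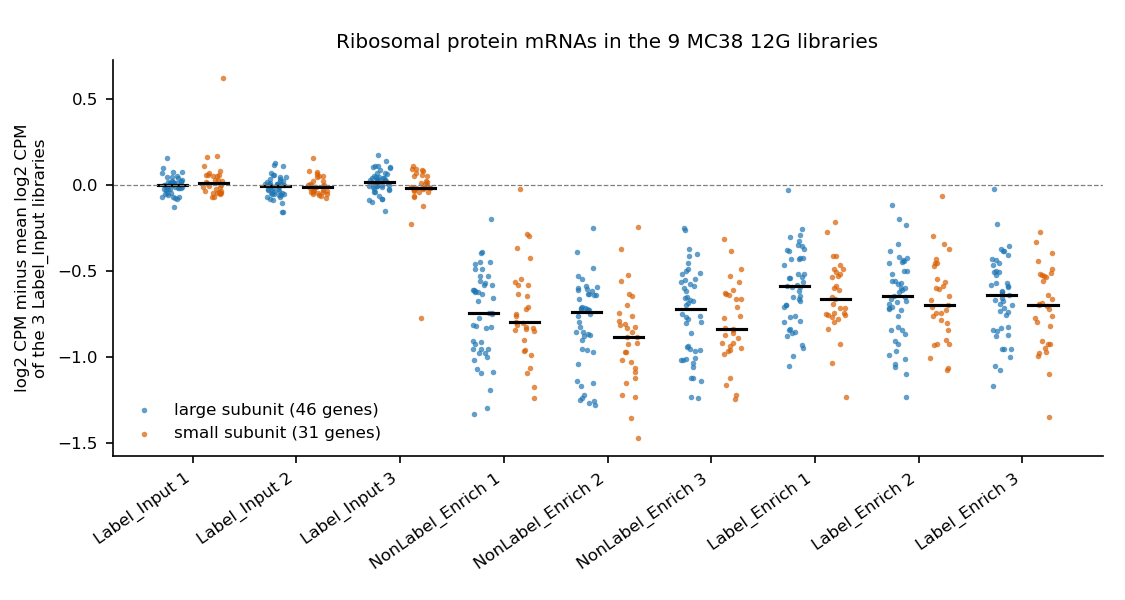
Log2 CPM of each of the 77 members in each of the 9 libraries, minus its mean over the 3 Label_Input libraries; points are genes, coloured by subunit, and black bars are medians over genes. The medians over all members lie between -0.67 and -0.61 in the Label_Enrich libraries and between -0.83 and -0.75 in the NonLabel_Enrich libraries on the TMM scale, a direction that turns with scaling to total counts; the 2 small subunit points farthest from 0 in Label_Input are Rps10, which has few counts.

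Label_Enrich against Label_Input addresses how captured RNA of labelled cells differed from the portion set aside ahead of the beads. Of the 77 members, 74 were called lower in Label_Enrich, 0 were called higher and 3 were not called, whereas scaling to total counts alone gave 0 lower and 77 higher. Over all tested features, 14.6% were called lower. The median log2 fold change was -0.64 over members and -0.02 over all other tested features. In 76 members the 3 Label_Enrich values all lay below the 3 Label_Input values, which held for 20.4% of all tested features. The median coefficient of variation of a member was 3.48% in Label_Enrich, so the typical difference was far larger than the spread within a group.

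Rps27, a zinc-binding protein of the small subunit, had the lowest fold change. It stood at 61.9, 55.8 and 55.0 CPM in the Label_Input libraries and at 24.5, 27.4 and 22.6 CPM in Label_Enrich. The groups lay far apart (log2 fold change ± SE, -1.21 ± 0.07; edgeR adjusted p = 3.15e-23). Rplp1, an acidic protein of the stalk that recruits elongation factors, stood at 249, 250 and 251 CPM in Label_Input and at 120, 106 and 111 CPM in Label_Enrich. Its input values were nearly equal and all captured values were below them by more than 2-fold (-1.15 ± 0.05, edgeR adjusted p = 3.35e-31). Rps15a, a small subunit protein, fell from 74.7, 81.9 and 76.3 CPM to 37.8, 36.8 and 36.2 CPM. Rpl34, of the large subunit, was also among the 5 lowest, with -0.997 ± 0.06.

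At the other end stood Rpl3, a large subunit protein close to the peptidyl transferase centre. Its Label_Input values were 289, 286 and 285 CPM, and its Label_Enrich values were 281, 264 and 282 CPM. The groups did not overlap, but the log2 fold change of -0.057 ± 0.04 did not pass the test (edgeR adjusted p = 0.348). Rpl4, whose extension lines the peptide exit tunnel, followed with 237, 231 and 235 CPM in Label_Input and 191, 199 and 200 CPM in Label_Enrich. All captured values were lower (-0.25 ± 0.04, edgeR adjusted p = 4.04e-06). Rps3, which lies at the mRNA entry channel, fell from 190, 193 and 187 CPM to 164, 154 and 157 CPM (-0.26 ± 0.05), and Rps9, a small subunit protein, had -0.32 ± 0.05.

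The remaining members not called were the 2 with the fewest counts. Rps10 was at 2.77, 2.00 and 1.05 CPM in Label_Input and at 1.25, 1.72 and 0.903 CPM in Label_Enrich. The groups overlapped (-0.57 ± 0.32, edgeR adjusted p = 0.192), and the value ran from -0.89 without Label_Input replicate 3 to -0.20 without Label_Input replicate 1. Rpl13a was at 6.01, 6.15 and 6.79 CPM in Label_Input and at 5.02, 5.49 and 4.92 CPM in Label_Enrich. Its groups did not overlap, with -0.30 ± 0.16 (edgeR adjusted p = 0.151). Per kilobase of the longest annotated transcript, the Label_Input level was 2.19 CPM for Rps10 and 6.03 CPM for Rpl13a, against a median of 97.4 CPM over members and 501 CPM for Rplp1.

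**Figure D2:**
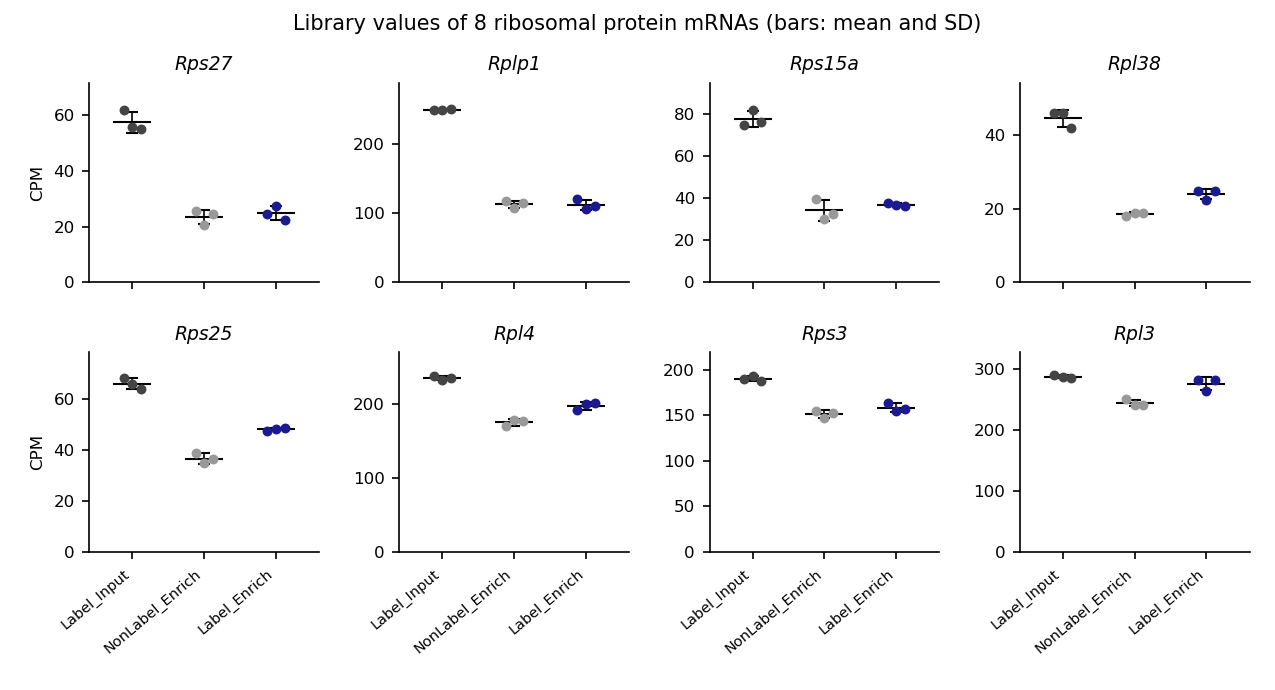
CPM of 8 members in the 3 libraries of each group; points are libraries, and bars are the mean and SD. On the TMM scale Rps27, Rplp1 and Rps15a lie far below the input in both captured groups, a direction that turns for the family with scaling to total counts, Rpl38 and Rps25 lie higher in Label_Enrich than in NonLabel_Enrich, and Rpl3 changes least from input.

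The start of transcription is shown for 6 of these genes, 3 whose annotated start opens a TOP tract and 3 whose start does not, since the TOP tract is the feature that the family is known to share. The sequences are from RefSeq on build GRCm38.p6, and each runs 5′ to 3′ on the transcribed strand from 40 bases before to 20 bases after the annotated start, whose first base is base 41 of the run. Capitals mark a C followed by at least 4 C or T that begins within 10 bases of the start. The windows are chr3:90213629-90213688 (minus strand) for Rps27, chr7:118116128-118116187 (minus) for Rps15a, chr11:114668540-114668599 (plus) for Rpl38, chr9:44407674-44407733 (plus) for Rps25, chr9:64173347-64173406 (plus) for Rpl4 and chr7:99483690-99483749 (minus) for Rps3.
Rps27: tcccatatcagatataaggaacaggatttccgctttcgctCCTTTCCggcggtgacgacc
Rps15a: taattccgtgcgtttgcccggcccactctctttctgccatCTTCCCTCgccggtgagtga
Rpl38: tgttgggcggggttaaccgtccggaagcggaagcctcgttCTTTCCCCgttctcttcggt
Rps25: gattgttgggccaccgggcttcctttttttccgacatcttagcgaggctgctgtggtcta
Rpl4: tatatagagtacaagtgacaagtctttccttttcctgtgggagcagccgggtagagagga
Rps3: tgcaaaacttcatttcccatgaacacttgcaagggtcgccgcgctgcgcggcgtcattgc

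RefSeq windows were found for 56 of the 77 members. A TOP tract (a C followed by at least 4 C or T, read on the transcribed strand alone) began exactly at an annotated start in 13 of them, or 23.2%, and in 2.97% of 26969 other genes. Within 10 bases of a start it began in 35, or 62.5%, against 34.3% of other genes. The other genes are all those with a window, whether or not they passed the low-count filter. In Rps25 and Rpl4 a pyrimidine run lies further upstream of the annotated base, in lower case above. Members with a tract at the start had a median log2 fold change of -0.65 from Label_Input to Label_Enrich, and the other 43 had -0.62. The letters CCGGAAG, bound by ETS family factors, occurred on either strand of the 300-base window in 24 members, or 42.9%, against 9.86% of other genes. The reverse complement of these letters opens with a pyrimidine run and so can overlap a TOP match. The GC box GGGCGG occurred in 62.5% against 38.2%, the YY1 letters AAGATGGC in 8.93% against 3.18%, and TATAAA in 10.7% against 15.7%. None of the 4 motifs contains another. Matches describe letters in the window and not binding.

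NonLabel_Enrich against Label_Input addresses how captured RNA titled as not labelled differed from the input of labelled cells. These groups differ in both labelling and capture, which cannot be told apart. Here 75 of 77 members were called lower and 0 higher, against 0 lower and 70 higher with scaling to total counts alone. On the TMM scale 14.7% of all tested features were called lower. The median log2 fold change was -0.78 over members and -0.01 over all other tested features. In 76 members the NonLabel_Enrich values all lay below the Label_Input values, as in 19.3% of all tested features. Both comparisons use the same Label_Input libraries, so their values stand side by side and are not independent.

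The 5 members with the lowest values here were Rps27 at -1.29 ± 0.07, Rpl38 at -1.25 ± 0.07, Rpl34 at -1.23 ± 0.06, Rps21 at -1.21 ± 0.07 and Rps15a at -1.18 ± 0.07. Rpl38 is a large subunit protein known in mouse for its part in translating Hox mRNAs. It stood at 45.9, 45.9 and 41.8 CPM in Label_Input, at 18.1, 18.9 and 18.9 CPM in NonLabel_Enrich and at 24.9, 22.4 and 24.8 CPM in Label_Enrich. Its 3 groups were separate, with Label_Enrich in the middle. Rpl3 again had the fold change closest to 0, with 250, 241 and 241 CPM in NonLabel_Enrich (-0.23 ± 0.04, edgeR adjusted p = 1.40e-05). Rps3, Rpl13a, Rpl4 and Rps9 came next to it at -0.33 ± 0.05, -0.40 ± 0.16, -0.42 ± 0.04 and -0.43 ± 0.05. The members not called were Rps10 at -0.46 ± 0.33 (edgeR adjusted p = 0.325) and Rpl13a (edgeR adjusted p = 0.0583). Over refits without 1 library Rps10 ran from -0.78 to -0.085, the ends being without Label_Input replicates 3 and 1. Rpl13a was called lower without NonLabel_Enrich replicate 3 and in the MC38 set titled 3G.

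**Figure D3:**
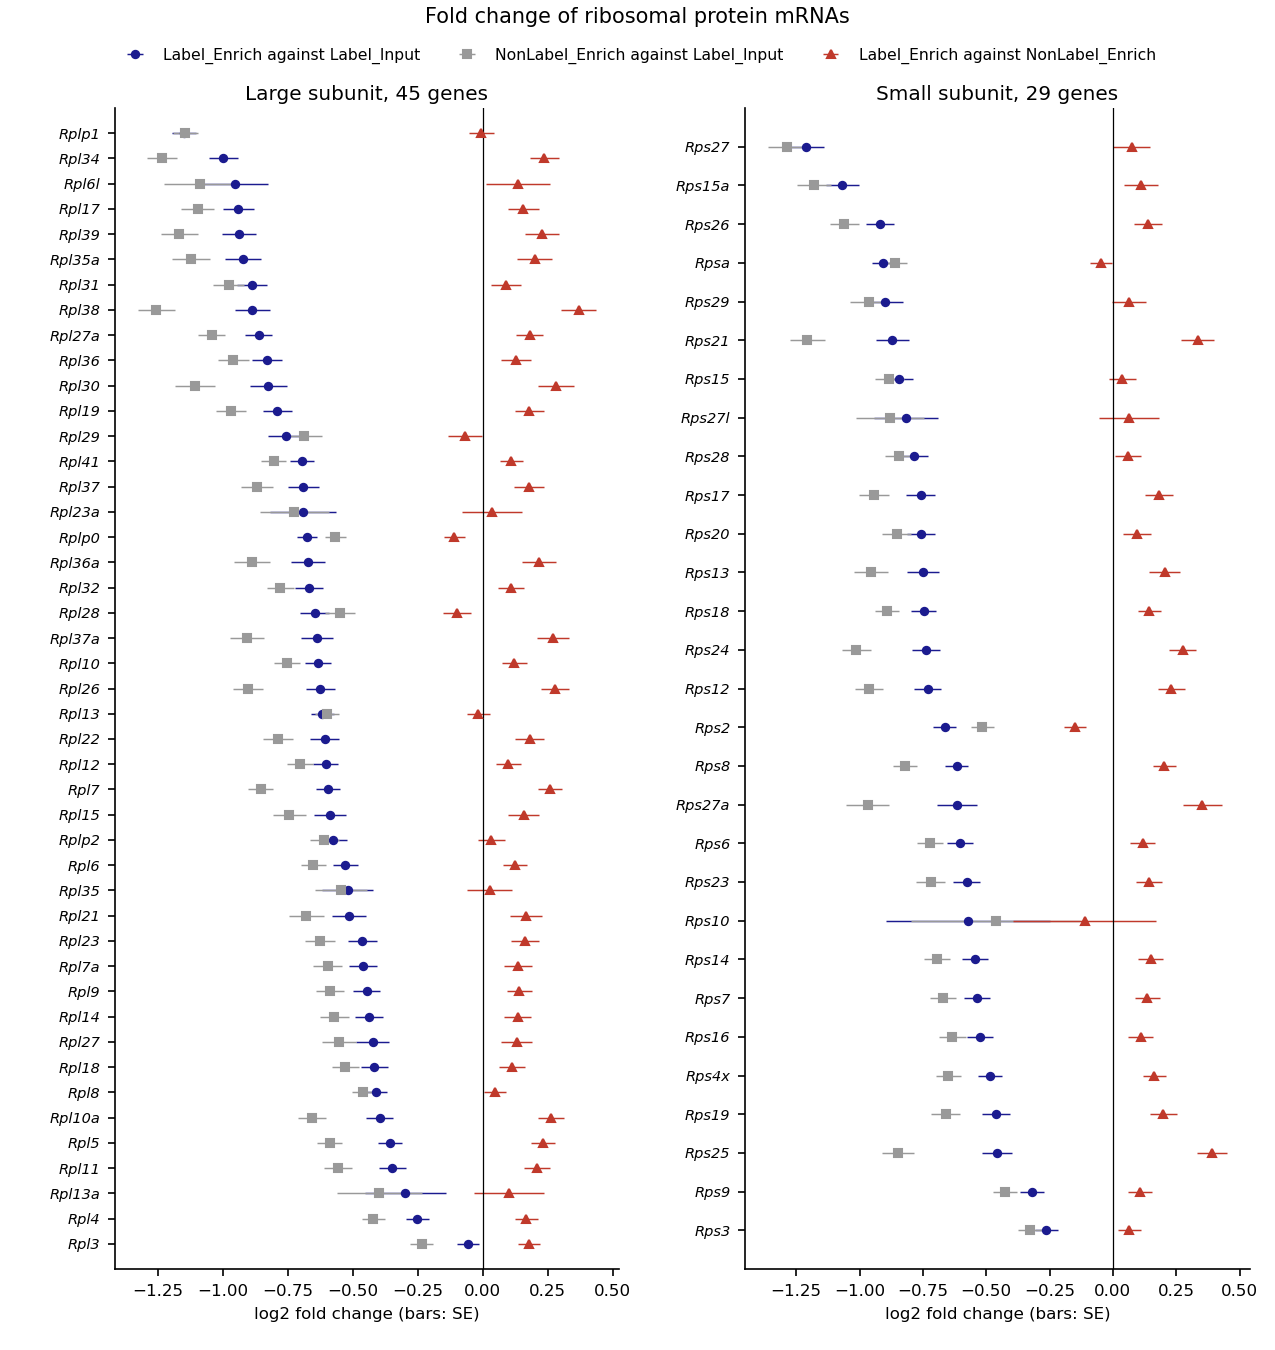
Log2 fold change of single members, a few not shown, in the 3 comparisons, by subunit and ordered by Label_Enrich against Label_Input; bars are SE. Both comparisons with Label_Input lie below 0 for every member shown on the TMM scale, a direction that turns with scaling to total counts, while Label_Enrich against NonLabel_Enrich runs from -0.15 for Rps2 to 0.39 for Rps25.

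Label_Enrich against NonLabel_Enrich addresses what labelling added to capture. On the TMM scale 36 members were called higher, 2 lower and 39 were not called, and scaling to total counts alone gave 76 higher and 0 lower. Of all tested features, 10.4% were called higher and 9.63% lower on the TMM scale. The median log2 fold change was 0.14 over members and 0.0009 over all other tested features. The 3 Label_Enrich values all lay above the 3 NonLabel_Enrich values in 40 members, against 17.6% of all tested features, and all below them in 1 member, against 17.0%. The shift was small beside the fall from input. Unlabelled RNA before capture was not analysed here, so an effect of labelling on the cells' own RNA and an effect on capture cannot be told apart.

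Rps25, a small subunit head protein, had the highest value. It stood at 47.5, 48.0 and 48.3 CPM in Label_Enrich and at 38.7, 34.7 and 36.2 CPM in NonLabel_Enrich. The groups were far apart (0.39 ± 0.06, edgeR adjusted p = 1.80e-07), and both lay below the input values of 68.0, 65.6 and 63.8 CPM. Rpl38 followed with 0.37 ± 0.07 (edgeR adjusted p = 1.77e-05), Rps21 with 0.34 ± 0.06 and Rpl30 with 0.28 ± 0.07. Rps27a, which is made as a fusion to ubiquitin, had 0.35 ± 0.08 (edgeR adjusted p = 0.000395). Its Label_Enrich values were 39.3, 47.1 and 40.7 CPM, and 1 of its NonLabel_Enrich values of 30.2, 27.5 and 41.5 CPM lay among them. The value was 0.23 without NonLabel_Enrich replicate 2 and 0.55 without NonLabel_Enrich replicate 3, and the call was lost under DESeq2.

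The 2 members called lower were the 2 with the most counts. Rps2, which lines the mRNA entry channel, was at 359, 333 and 338 CPM in Label_Enrich and at 405, 350 and 387 CPM in NonLabel_Enrich. One NonLabel_Enrich value lay within the Label_Enrich range (-0.15 ± 0.04, edgeR adjusted p = 0.00999). Rplp0, the base of the stalk, was at 385, 377 and 375 CPM in Label_Enrich and at 411, 402 and 414 CPM in NonLabel_Enrich. Its groups did not overlap, and the difference was small (-0.11 ± 0.04, edgeR adjusted p = 0.0427). Rplp0 lost its call when any 1 of the 6 captured libraries was left out, and Rps2 without Label_Enrich replicate 2 or 3 or NonLabel_Enrich replicate 1, so that 0 to 2 members were called lower over these refits. With scaling to total counts neither was called lower. Rps10, Rpl28 and Rpl29 also had values below 0, at -0.11 ± 0.28, -0.10 ± 0.05 and -0.07 ± 0.07, and were not called.

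The other members not called in this comparison included, in the large subunit, Rpl6, Rpl6l, Rpl7a, Rpl8, Rpl10, Rpl12, Rpl13, Rpl13a, Rpl14, Rpl17, Rpl18, Rpl23a, Rpl27, Rpl31, Rpl32, Rpl35, Rpl36, Rpl41, Rplp1 and Rplp2. In the small subunit they included Rps3, Rps6, Rps9, Rps15, Rps15a, Rps16, Rps20, Rps26, Rps27, Rps27l, Rps28, Rps29 and Rpsa. Rpl6 (edgeR adjusted p = 0.0503) and Rpl17 (edgeR adjusted p = 0.0528) lay closest to the threshold. Scaling to total counts aside, Rpl6 was called higher in 7 alternative fits and Rpl17 in 6. Rpl10, Rpl14 and Rps26 were called higher in 5 each, DESeq2 among them, and several others in fewer. A missed threshold does not show that a member was equal in both captures.

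Both subunits were lower in captured RNA than in input on the TMM scale, a direction that turns with scaling to total counts. From Label_Input to Label_Enrich, 44 of 46 large and 30 of 31 small subunit members were called lower, beside 14.6% of all tested features. The subunit medians were -0.63 and -0.67. From Label_Input to NonLabel_Enrich the medians were -0.73 and -0.85. In Label_Enrich against NonLabel_Enrich, 22 large subunit members were called higher and 1 lower, with a median of 0.14. In the small subunit 14 members were called higher and 1 lower, with a median of 0.12. The shares over all tested features were 10.4% higher and 9.63% lower. Within single libraries, the large minus small difference in median log2 CPM relative to input was -0.009 to 0.034 in Label_Input, 0.051 to 0.073 in Label_Enrich and 0.051 to 0.145 in NonLabel_Enrich. All 6 captured libraries lay above the 3 input libraries, which are the reference and so lie around 0 by construction. The difference of the medians from Label_Input to Label_Enrich was 0.037, and it was 0.107 without Label_Enrich replicate 2 and 0.099 without Label_Input replicate 3. Members are not replicates of a subunit, and no test was run on this difference.

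The stalk proteins bind the factors that drive elongation. Rplp1 fell by 1.15 on the log2 scale from Label_Input to Label_Enrich, whereas Rplp0 had -0.68 ± 0.04 and Rplp2 had -0.57 ± 0.05. Rplp2 was at 126, 131 and 127 CPM in Label_Input and at 89.3, 83.0 and 85.5 CPM in Label_Enrich. Between the captured groups Rplp1 (-0.0051 ± 0.05) and Rplp2 (0.03 ± 0.05) overlapped.

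Rpl5 and Rpl11 join the 5S ribosomal RNA before it enters the large subunit, and both also bind MDM2 when ribosome assembly fails. They changed alike, with -0.36 ± 0.05 and -0.35 ± 0.05 from Label_Input to Label_Enrich, and 0.23 ± 0.05 and 0.21 ± 0.05 from NonLabel_Enrich to Label_Enrich. Rpl5 stood at 189, 199 and 208 CPM in Label_Input, at 130, 136 and 131 CPM in NonLabel_Enrich and at 161, 152 and 153 CPM in Label_Enrich. Its groups were separate, with Label_Enrich in the middle. Rpl11 lost its call against NonLabel_Enrich without Label_Enrich replicate 1.

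Around the peptide exit, the ribosome docks on the ER translocon and meets the signal recognition particle. There, 8 of 8 listed members (Rpl17, Rpl19, Rpl22, Rpl23a, Rpl26, Rpl31, Rpl35 and Rpl39) were called lower in Label_Enrich than in Label_Input. Their values ran from -0.94 for Rpl17 to -0.52 for Rpl35. That is near the share of 74 in 77 of the whole family, beside 14.6% of all tested features. Against NonLabel_Enrich, 4 of the 8 were called higher, near the share of 36 in 77 of the whole family and beside 10.4% of all tested features. These were Rpl26 at 0.28 ± 0.05, Rpl39 at 0.23 ± 0.07, Rpl22 at 0.18 ± 0.05 and Rpl19 at 0.18 ± 0.06. The call of Rpl39 was lost without Label_Enrich replicate 1, where its value was 0.13, or NonLabel_Enrich replicate 2, that of Rpl22 without Label_Enrich replicate 2 or 3 or NonLabel_Enrich replicate 1, and that of Rpl19 without Label_Enrich replicate 3 or NonLabel_Enrich replicate 1. Along the mRNA channel, 6 of 6 listed members were called lower in Label_Enrich than in Label_Input, near the same family share. Their values ran from -0.92 for Rps26 to -0.26 for Rps3, with Rps2, Rps14 and Rps28 among them. Against NonLabel_Enrich, Rps14 alone of the 6 was called higher (0.15 ± 0.05, edgeR adjusted p = 0.0255). That call was lost without Label_Enrich replicate 1 or 3 or NonLabel_Enrich replicate 2 or 3.

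Some members are also known for a further role or feature. Rpsa, also known as a laminin receptor, was at 322, 291 and 310 CPM in Label_Input, 172, 162 and 159 CPM in Label_Enrich and 172, 167 and 171 CPM in NonLabel_Enrich. The captured groups overlapped, and both were far below input (-0.91 ± 0.05 for Label_Enrich). Rps6, the substrate of S6 kinase, had -0.60 ± 0.05 and Rps4x, an X-linked small subunit protein, -0.49 ± 0.05. Rpl10, which joins the large subunit late, had -0.63 ± 0.05, and Rpl38 had -0.89 ± 0.07. Rps27l, a close paralog of Rps27 known in human cells as a p53 target, was far lower in counts, with 11.5 to 15.0 CPM in Label_Input and 8.90, 6.67 and 7.13 CPM in Label_Enrich. Its groups did not overlap (-0.82 ± 0.13, edgeR adjusted p = 2.49e-07). The pseudogene feature Rpl6l had -0.95 ± 0.13, and Rpl6 had -0.53 ± 0.05.

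Fold change from input rose with coding length among the members. The longest annotated coding sequence of a member ran from 138 to 1257 nt with a median of 454.5 nt, against a median of 1419 nt over all tested features. Over the 76 members with one, Spearman's rho of coding length and log2 fold change was 0.56 for Label_Enrich against Label_Input and 0.60 for NonLabel_Enrich against Label_Input. Without Rpl3 and Rpl4, the longest, it was 0.52 and 0.57. For Label_Enrich against NonLabel_Enrich it was -0.15. These values are across genes of the same libraries, which are not independent replicates. By the median length of a gene's protein-coding transcripts the values were 0.33, 0.37 and -0.07, and by the longest annotated transcript they were 0.26, 0.21 and 0.10. For mean CPM over the 9 libraries, in place of length, they were 0.33, 0.40 and -0.19. Within each subunit the relation to input was alike, with rho of 0.57 in both for Label_Enrich.

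Other short mRNAs were lower too, though less. Among tested genes outside the family with a coding sequence under 300 nt, 163 in number, the median from Label_Input to Label_Enrich was -0.39, beside -0.87 for 9 members of that length. From 300 to 450 nt it was -0.42 in 490 other genes and -0.74 in 27 members, and from 600 to 900 nt -0.12 in 1400 other genes and -0.53 in 19 members. At 900 nt or more it was 0.06 in 7815 other genes, and -0.46 in 4 members. The gap depended on the length used. Under 500 nt by the longest annotated transcript the medians were -0.71 in 34 other genes and -0.89 in 5 members, and under 500 nt by the median protein-coding transcript they were -0.22 in 154 other genes and -0.80 in 14 members. Whether length had a part in the family's fall was not tested. Base composition went differently: rho of transcript GC content with Label_Enrich against NonLabel_Enrich was -0.41 over the 77 members. With Label_Enrich against Label_Input it was 0.06, and with NonLabel_Enrich against Label_Input 0.25.

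**Figure D4:**
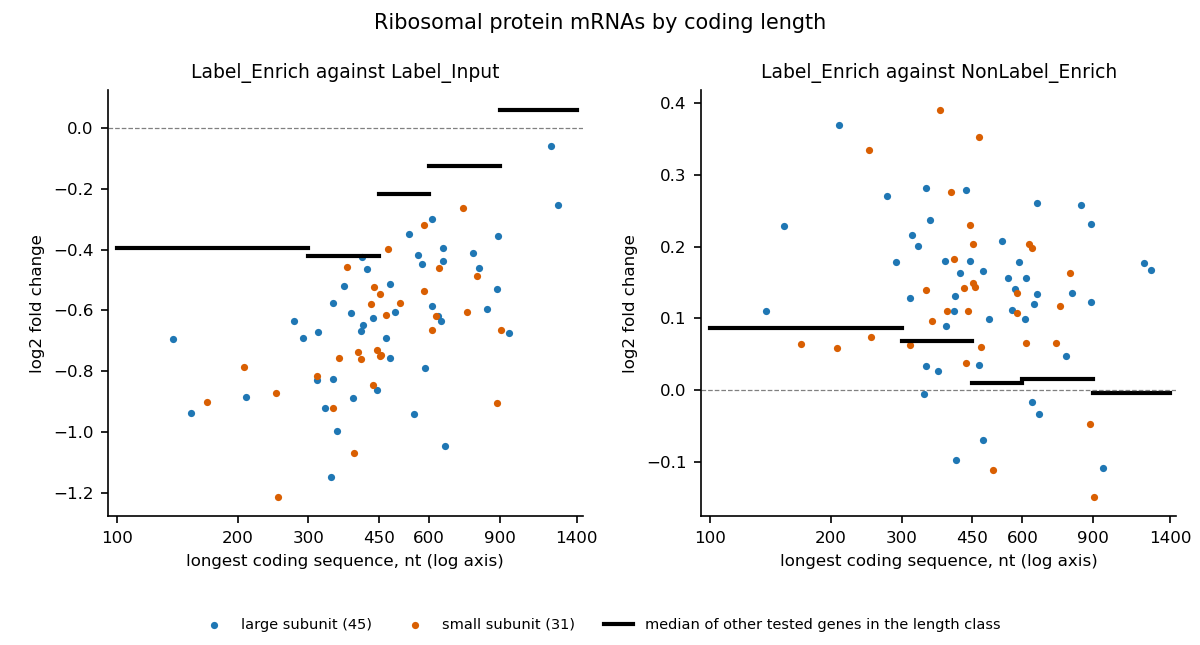
Log2 fold change of the members by their longest coding sequence (log axis), for Label_Enrich against Label_Input and against NonLabel_Enrich; points are genes, coloured by subunit, and black lines are medians of all other tested genes in the same length class. On the TMM scale against input, Rpl3 and Rpl4 at the right lie highest, and in every length class most members lie below the line; the last class also holds genes longer than the axis shows.

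Cytosolic ribosome genes outside the symbol rule included Fau, made as a fusion to a ubiquitin-like protein, Rack1, a scaffold on the small subunit, and the paralog Rpl22l1. These 3 were lower in Label_Enrich than in Label_Input, at -0.61 ± 0.06, -0.52 ± 0.04 and -1.07 ± 0.23, and none of them was called against NonLabel_Enrich. Rpl36al was not tested, with 48 counts. Rps3a1, the mouse small subunit gene whose symbol does not match the rule, had -0.45 ± 0.04 against Label_Input and 0.16 ± 0.04 against NonLabel_Enrich (edgeR adjusted p = 0.00538), and it was added after its values were seen.

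Of 24 translation factors and other TOP mRNAs, 13 were lower and 2 higher in Label_Enrich than in Label_Input, with a median of -0.14, where 14.6% of all tested features were lower and 14.2% higher. Tpt1, a growth-related TOP mRNA, had -0.66 ± 0.05 and Eef1b2, an exchange factor for elongation factor 1A, -0.41 ± 0.05, while Eef1a1, elongation factor 1A itself, had -0.05 ± 0.04 (edgeR adjusted p = 0.351). Against NonLabel_Enrich, 8 were higher and 3 lower with a median of 0.09, where 10.4% of all tested features were higher and 9.63% lower, among them Eif3e at 0.36 ± 0.06, Naca at 0.27 ± 0.06 and Eef1a1 at 0.20 ± 0.04. Against input NonLabel_Enrich had 16 lower and 3 higher, with a median of -0.29, where 14.7% of all tested features were lower and 14.8% higher.

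Of 36 ribosome assembly factors, 3 were lower and 9 higher in Label_Enrich than in Label_Input, with a median of 0.08, beside the same 14.6% lower and 14.2% higher of all tested features. Nop10, a small protein of box H/ACA particles, had -0.83 ± 0.14, and Rrp12 and Heatr1, both nucleolar assembly factors, had 0.56 ± 0.09 and 0.42 ± 0.07. Against NonLabel_Enrich, 5 were higher and 1 lower (10.4% and 9.63% of all tested features), and for NonLabel_Enrich against input 8 were higher and 8 lower (14.8% and 14.7%). Of 77 tested mitochondrial ribosomal protein genes, 33 were lower and 0 higher in Label_Enrich than in Label_Input, with a median of -0.35, beside 14.6% and 14.2% of all tested features. Mrpl30 had -0.79 ± 0.13 and Mrpl42 -0.82 ± 0.13. Against NonLabel_Enrich 3 were higher and 1 lower, beside 10.4% and 9.63% of all tested features, and NonLabel_Enrich against input had 36 lower and 0 higher, beside 14.7% and 14.8%. No test compared these lists with the members.

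**Figure D5:**
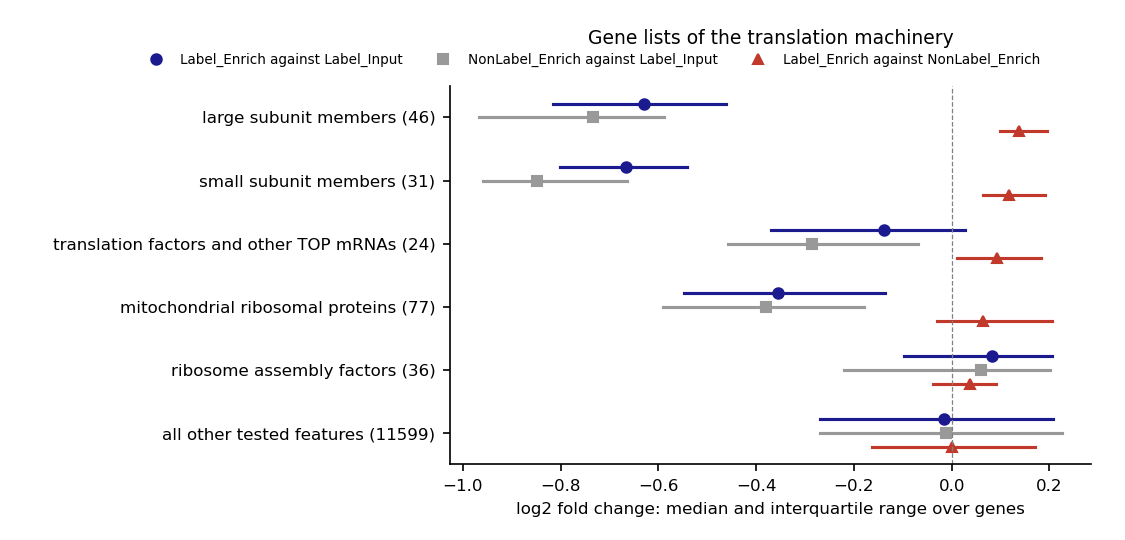
Median (symbols) and interquartile range (lines) of log2 fold change over the tested genes of each list, in the 3 comparisons; the number of genes is in parentheses. Against Label_Input on the TMM scale (the direction turns for the members with scaling to total counts) the medians of both subunits lie between -0.85 and -0.63, those of mitochondrial ribosomal proteins between -0.38 and -0.35, and those of assembly factors at 0.06 and 0.08.

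Ribosomal protein genes have many processed copies in the genome, and 300 features bore the symbol of a ribosomal protein pseudogene. They held 2.16 to 2.29 counts per 100 member counts in Label_Input, 2.13 to 2.14 in Label_Enrich and 2.00 to 2.26 in NonLabel_Enrich, ranges that overlapped except that Label_Enrich lay below Label_Input. The 39 tested features had a median of -0.65 from Label_Input to Label_Enrich, close to that of the members, with 20 called lower and 0 higher, where 14.6% of all tested features were called lower and 14.2% higher. Reads of a gene and of its copies cannot be told apart in these counts. Small nucleolar RNA genes lay inside 29 members, whose median from Label_Input to Label_Enrich was -0.62, beside -0.66 in the other 48.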

How the data were processed

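RNA of MC38 cells was sequenced in 9 libraries of the set titled 12G. The deposited tables hold raw counts of reads for each Ensembl gene. The submitters' processing notes name HTSeq 0.7.2, HISAT2 2.1.0, DESeq2 1.16.1 and cutadapt 1.18, and build GRCm39. They do not say how strand or reads with several matches were treated. Symbols (52073 of 56691 features), lengths and small nucleolar RNA positions came from GENCODE M21, on the older build GRCm38, and start sequences from RefSeq on GRCm38.p6.

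The 9 libraries were fitted together with edgeR 4.0.16 in R 4.3.3, using TMM factors, filterByExpr by group, the quasi-likelihood F test (2-sided) and Benjamini-Hochberg adjustment over 11676 features. The SE was taken from the log2 fold change and the root of its F value. The fit was tested on simulated data. DESeq2 1.42.0 was an alternative.

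The members and lists were chosen with earlier results of these data known. Named genes were those fixed by name, the 5 highest and 5 lowest members in each comparison, members not called or called against the majority, and structural lists. The MC38 3G table, whose totals were 67.8% to 68.9% of 12G and in which 0 members had more counts, served as an alternative. The labels do not say whether 3G and 12G share libraries, so the 3G fit is not taken as independent. The HEK293T table was not used. Some genes enter the counts and medians but are not reported here by name.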

Additional observations from a re-analysis of the deposited data

How the results depend on the processing

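From Label_Input to Label_Enrich and to NonLabel_Enrich, the number of members called lower stayed at 74 and at 75 or 76 in every alternative that kept all 77 members on a scale set by the bulk of genes, and the strict low-count filter (75 members tested) gave 74 and 75. Members with a mean of at least 20 CPM numbered 71, of which 70 and 71 were called lower. Scaling to total counts alone, an alternative chosen after seeing the data, turned the direction: 0 members were lower and 77 higher in Label_Enrich than in Label_Input (median 0.98; all features 92 lower and 11272 higher), 0 and 70 in NonLabel_Enrich against Label_Input (median 0.53; all features 89 and 10841), and 0 and 76 in Label_Enrich against NonLabel_Enrich (median 0.45; all features 172 and 5827). This scale moves with the share of ENSMUSG00000119584. The median from Label_Input to Label_Enrich was -0.60 with DESeq2, -0.53 without the low-count filter and -0.68 with the strict filter, and that from Label_Input to NonLabel_Enrich -0.70 without the filter; the cause was not tested. The large minus small difference from Label_Input to Label_Enrich was 0.04, or 0.064 with the strict filter, and 0.025 to 0.107 over refits without 1 library.

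In Label_Enrich against NonLabel_Enrich, 25 to 37 members were called higher and 0 to 2 lower over refits without 1 library. Calls over all tested features moved in the same refits too, from 951 to 1251 higher and from 859 to 1167 lower. In the members, 1 was called lower without the low-count filter, with the 3G table and with the replicate block. Against 36 in the main fit, members called higher numbered 42 with DESeq2 and 46 without the low-count filter. They numbered 43 of 75 tested with the strict filter and 27 with the 3G table. Shares over all tested features in these alternatives are not given here. Spearman coefficients with coding length (0.56 and 0.60, chosen after seeing the data) exceeded those with median transcript length. Deviations of same-numbered libraries correlated at -0.012 to 0.020. With 3 libraries per group, this does not show whether a replicate number marks a shared culture. With the replicate block, 42 members were called higher and 1 lower in Label_Enrich against NonLabel_Enrich, and 74 and 75 lower against input. Values near 0 changed sign without passing the test. These were Rplp1 against NonLabel_Enrich (0.0043 with DESeq2, 0.026 without the filter, 0.018 with the 3G table), Rpl13 (0.015 without the filter) and, against Label_Input, Rpl3 (0.048 without the filter, edgeR adjusted p = 0.621). Over refits without 1 library, values against NonLabel_Enrich ran from -0.055 to 0.0028 for Rpl13, -0.069 to 0.144 for Rpl23a, -0.029 to 0.112 for Rpl35, -0.056 to 0.035 for Rplp1, -0.016 to 0.119 for Rplp2, -0.352 to 0.088 for Rps10, -0.0077 to 0.098 for Rps15, -0.012 to 0.133 for Rps27, -0.084 to 0.180 for Rps27l and -0.018 to 0.178 for Rps29.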
